A study of Mus musculus with 6 samples.

Results

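The 10 genes described here are Nfe2l2, Nqo1, Gclc, Gclm, Txnrd1, Srxn1, Gpx1, Gpx3, Gpx4 and Sod2, a group of antioxidant genes tied to the transcription factor Nrf2 and to glutathione. They were taken by symbol, with no cutoff on a measured value, from the 55450 genes of a kidney mRNA count table. Earlier results of these data were known when they were chosen. All 10 had enough counts to be among the 16592 genes tested. Nrf2, the protein of Nfe2l2, is held in the cytoplasm and marked for breakdown by Keap1, and under oxidant or electrophile stress it escapes, enters the nucleus and binds antioxidant response elements together with small Maf proteins. Its targets make glutathione, a tripeptide that peroxidases use to reduce peroxides, and run the parallel thioredoxin system. In the kidney the proximal tubule is rich in mitochondria and in glutathione turnover, and it is known as the main source of the secreted peroxidase Gpx3.

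Kidney RNA was sequenced from 3 day-0 and 3 day-21 mice, all male wild-type C57BL/6J, purchased at 7 weeks of age and kept for 1 week before the study began. The day-0 mice are labelled control, with 20% PEG given as their treatment. The day-21 mice received adenine at 0.16 g/kg mixed with potassium oxonate at 2.4 g/kg once daily by gavage, a mixture that damages tubules and raises serum uric acid. Each group was killed on its own day, so the day-21 mice were older at collection, and their labels give no PEG. Effects of age, of PEG and of the mixture cannot be told apart here. Each library is 1 mouse and whole kidney tissue, so for every value below fewer cells of a type and less RNA per cell cannot be told apart.

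The 6 libraries held between 10963849 and 14333311 counts. Levels are given as CPM, a gene's counts over the TMM-scaled library total, and 3 counts, taken as the floor of detection, came to between 0.179 and 0.309 CPM, which covers counting error only. A gene was called higher or lower at an adjusted p under 0.05 (edgeR quasi-likelihood test, Benjamini-Hochberg over all genes tested) and a fold over 1.5, the thresholds of the study. Fold changes are log2 values of day 21 over day 0, with their SE. Proximal tubule markers were lower on day 21 in 10 of 10 genes, with a summed level of 24100 to 35200 CPM on day 0 and 4780 to 6980 CPM on day 21. Macrophage markers were higher in 10 of 10, from 169–221 to 1020–1350 CPM, and injured tubule markers in 7 of 7, from 813–2130 to 23600–28000 CPM. No defining marker of these lists was at 0 in all mice, and the part of tissue makeup in the results below was not tested.

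Day-0 mouse 1 stood apart from the other control mice in some genes of the same pathway, but not in others. Hmox1, heme oxygenase 1 and a classic Nrf2 target, was at 750 CPM in this mouse and at 57.9 and 43.7 CPM in day-0 mice 2 and 3, which is 14.8 times their mean. Among 13142 genes with a mean of at least 50 counts, Hmox1 ranked 6 for the excess of this mouse over the higher of the other 2, and Srxn1 ranked 31. Txnrd1 ranked 188, Nqo1 541, Gclc 1663 and Gclm 3910. Txn1, Prdx1 and Gss were at 1.02, 0.902 and 0.95 times the mean of the other 2, while Osgin1, Bach1, Gsr and Sqstm1 were at 2.37, 1.66, 1.5 and 1.31 times. Krt20, a marker of injured tubule singled out after its values were seen, ranked 5, at 16.0 CPM against 0.247 and 0.515 CPM. The same mouse also had the highest day-0 level of Havcr1 (kidney injury molecule 1), 8.12 CPM against 2.23 and 1.55 CPM, although on day 21 this gene reached 864 to 1220 CPM. Of the 10 antioxidant genes, 7 were highest on day 0 in mouse 1 and 8 were lowest in mouse 3, with no share over all genes taken beside these counts. For the 10 genes, and for the counts of the other lists that change most, the values without mouse 1 are therefore given as well.

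**Figure D1:**
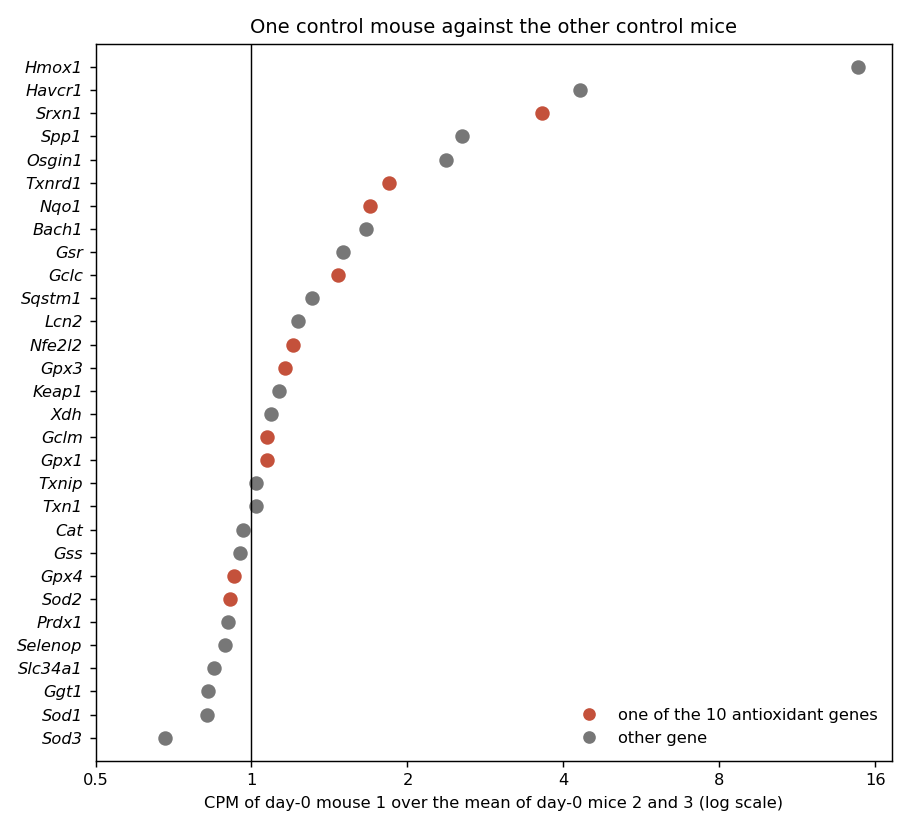
Level of each gene in day-0 mouse 1 divided by the mean of day-0 mice 2 and 3, on a log axis, for the 10 antioxidant genes and 20 other genes. Of the genes drawn, Hmox1 lies farthest to the right at 14.8, Srxn1 leads the antioxidant genes at 3.64, and Gpx4 and Sod2 lie below 1. Krt20 and Slc7a11 are left out because their levels in day-0 mice 2 and 3 were too low for a ratio. Krt20, at 16.0 CPM against 0.247 and 0.515 CPM, would lie beyond Hmox1.

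On day 21, 6 of the 10 antioxidant genes were called lower, none was called higher, and 4 were not called. The genes called lower were Gclc, Gclm, Txnrd1, Gpx1, Gpx3 and Sod2, falling 1.61-fold to 2.46-fold. Over all genes tested, 15.5% were called lower and 19.6% called higher. The median log2 fold change of the 10 genes was -0.82, beside 0.03 over all genes tested, and 9 of 10 values were negative. In 7 of the 10, every day-21 mouse lay below every day-0 mouse, against 26.4% of all genes tested. At an adjusted p under 0.05 with no limit on the fold, 7 of the 10 were lower, against 21.7% of all genes. The choice of scaling mattered here. With library size alone, which shifts the median of all genes to 0.42 and calls 36.1% of genes higher and 8.06% lower, only Gclc and Sod2 were called lower and Nfe2l2 was called higher. Without day-0 mouse 1, 6 of the 10 were called lower, against 15.7% of the genes then tested, but Gpx4 took the place of Txnrd1.

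**Figure D2:**
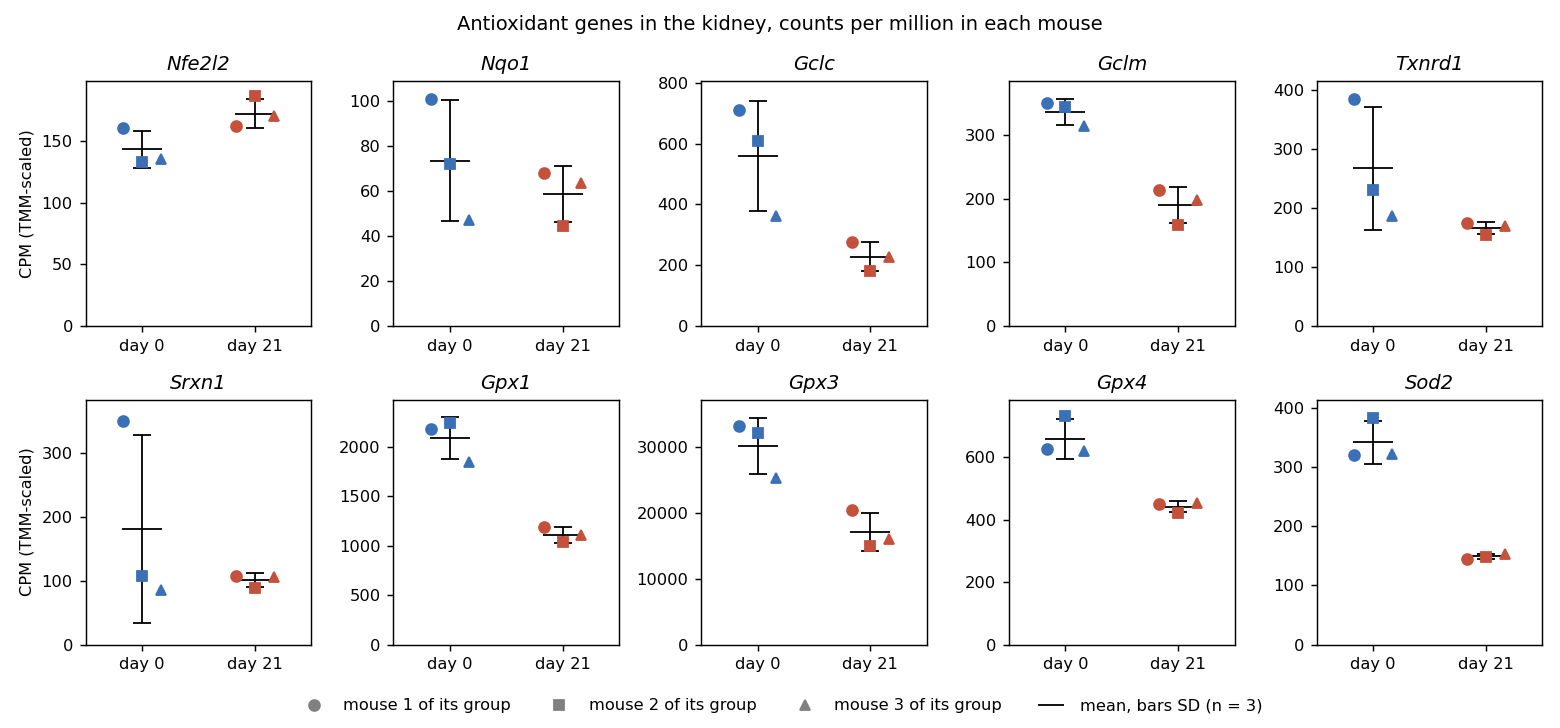
CPM of the 10 antioxidant genes in each of the 6 mice, day 0 in blue and day 21 in red, with linear axes from 0; horizontal lines are means and bars are SD (n = 3). The groups are apart for all genes but Nqo1 and Srxn1, Nfe2l2 is the gene with higher day-21 values, and day-0 mouse 1 is far above the others for Srxn1.

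**Figure D3:**
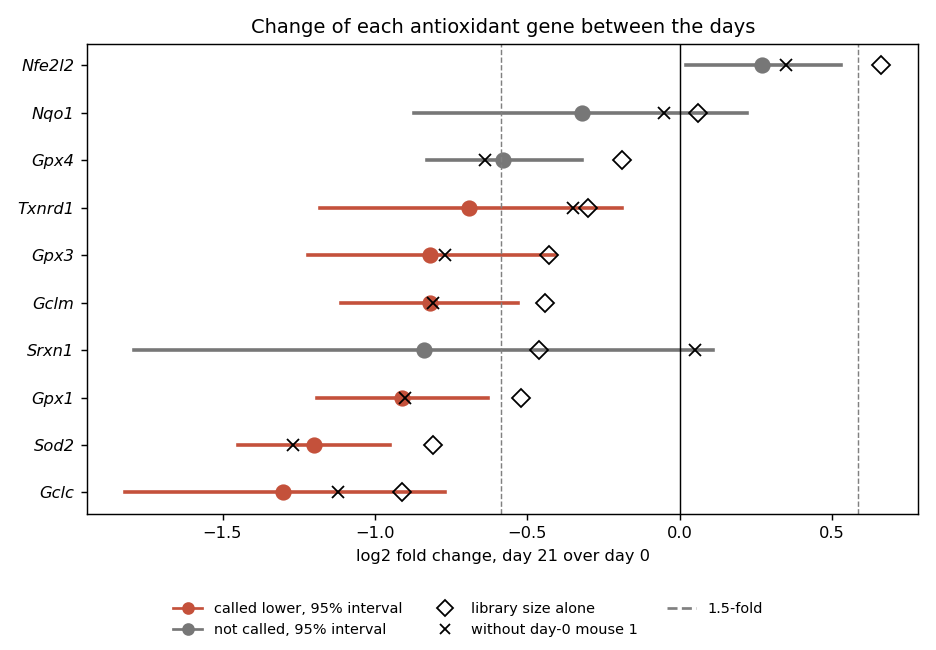
Log2 fold change of each gene, day 21 over day 0, with its 95% interval, and the values with library size alone (diamonds) and without day-0 mouse 1 (crosses). Dashed lines mark a fold of 1.5; Srxn1 moves from -0.84 to 0.05 without day-0 mouse 1, while Gclc and Sod2 stay beyond the line in all 3 settings.

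Nfe2l2 lies at chr2:75675513-75704641 on the minus strand of GRCm38, the build of all positions given here (GENCODE M21 annotation), with 5 exons in its longest transcript. Its level was 160, 133 and 135 CPM in day-0 mice 1, 2 and 3 and 162, 186 and 170 CPM in day-21 mice 1, 2 and 3. Every day-21 mouse was above every day-0 mouse, though the highest control and the lowest day-21 mouse were nearly level. The log2 fold change was 0.27 ± 0.12 (SE; 95% interval 0.02 to 0.53), with an adjusted p of 0.076 in the edgeR test, so Nfe2l2 was not called. Leaving out day-0 mouse 1 gave 0.35 (adjusted p = 0.038), still under the fold needed for a call. With library size alone it was 0.66 and called higher, on a scale where the median gene stood at 0.42. For a single gene the mice were also permuted exactly (two-sided), which gave p = 0.1 for Nfe2l2, the smallest p that this permutation test allows, and the same for every antioxidant gene below whose groups did not overlap.

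Antioxidant response elements were looked for in the windows from 250 bases before to 50 bases after each RefSeq transcription start (GRCm38.p6), as a description of letters only. The core element was searched as TGACNNNGC and the AP-1 site, which can overlap it, as TGACTCA, both on either strand. Of the 10 genes, 9 had at least 1 window in the table used, 14 windows in all, and Gclc had none. The core element occurred in 4 of the 14 windows, each of a different gene, and in 12.4% of all 32851 windows. With a further A at its end it occurred in 1 of the 14, that of Txnrd1, and in 3.04% of all. The AP-1 site occurred in 1 of the 14, that of Srxn1, and in 5.2% of all windows. The 4 core matches are shown in capitals with 10 bases on either side, each in the direction of its gene, because Nrf2 is known to bind elements of this form. Elements with other letters, or outside these windows, were not searched. A gene without a match may still have one, and a match need not be the element in use. In Gclm, Txnrd1 and Srxn1 the match is on the opposite strand, so its complement is what is printed.
Nfe2l2, 240 bases before the start, chr2:75704885-75704913, minus strand: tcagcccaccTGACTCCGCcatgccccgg
Gclm, 134 bases before the start, chr3:122245413-122245441, plus strand: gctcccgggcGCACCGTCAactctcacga
Txnrd1, 92 bases before its second start, chr10:82859104-82859132, plus strand: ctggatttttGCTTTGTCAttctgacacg
Srxn1, 29 bases after the start, chr2:152105542-152105570, plus strand: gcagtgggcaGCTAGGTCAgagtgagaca

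Nqo1, the quinone reductase often read as the standard Nrf2 target, lies at chr8:107388225-107403206 on the minus strand. It stood at 101, 72.2 and 47.3 CPM on day 0 and at 68.1, 44.7 and 63.6 CPM on day 21. The groups overlapped, and the control mice were spread more widely than the day-21 mice. The log2 fold change was -0.32 ± 0.25 (95% interval -0.87 to 0.22; edgeR adjusted p = 0.31), and the exact permutation test gave p = 0.4. Without day-0 mouse 1 the value was -0.05, and with library size alone it was 0.06, so Nqo1 had no direction that held.

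Gclc and Gclm encode the catalytic and the modifier subunit of glutamate-cysteine ligase, the enzyme of the rate-limiting step in glutathione synthesis. Gclc (chr9:77754535-77794485, plus strand, 16 exons) was at 711, 609 and 361 CPM on day 0 and at 275, 181 and 228 CPM on day 21. All control mice were above all day-21 mice, but the control mice were far apart, with mouse 3 nearest to the day-21 group. Its log2 fold change of -1.30 ± 0.24 (edgeR adjusted p = 0.0013) was the largest fall among the 10 genes. Without day-0 mouse 1 it was -1.12, and the largest fall was then that of Sod2, at -1.27. Gclm (chr3:122245557-122270732, plus strand) was at 350, 344 and 313 CPM on day 0 and at 213, 158 and 198 CPM on day 21. Its control mice were close together and well above the day-21 mice. This was a log2 fold change of -0.82 ± 0.13 (edgeR adjusted p = 0.00055), with the same call after leaving out any mouse. A small part of the Gclm exons, 3.9% on the same strand and 4.7% on the opposite, lies in the exons of Gm6061 and Gm17494. Per length, the ratio of Gclc to Gclm was 2.76 ± 0.752 on day 0 and 2.00 ± 0.139 on day 21 (SD, n = 3), a difference within the spread of the control mice (exact permutation p = 0.2).

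The 250 bases upstream of the Gclm start are shown because this gene was lower in every day-21 mouse than in any control and holds a core element. The same stretch of Srxn1 follows because this gene set day-0 mouse 1 apart, with its AP-1 sites, 102 and 45 bases before the start, in capitals.
Gclm, chr3:122245307-122245556, plus strand: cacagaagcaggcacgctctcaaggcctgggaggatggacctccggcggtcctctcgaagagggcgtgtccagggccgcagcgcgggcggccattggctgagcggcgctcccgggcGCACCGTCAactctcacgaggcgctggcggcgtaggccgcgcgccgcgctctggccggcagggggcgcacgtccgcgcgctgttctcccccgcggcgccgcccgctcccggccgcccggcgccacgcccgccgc
Srxn1, chr2:152105274-152105523, plus strand: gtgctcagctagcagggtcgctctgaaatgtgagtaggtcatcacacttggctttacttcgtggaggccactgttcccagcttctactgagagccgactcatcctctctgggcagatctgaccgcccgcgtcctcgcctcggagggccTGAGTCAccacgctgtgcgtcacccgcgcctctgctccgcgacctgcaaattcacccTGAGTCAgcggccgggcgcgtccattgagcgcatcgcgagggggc

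Txnrd1 and Srxn1 serve the thioredoxin side of the defence: the first is the cytosolic reductase that recharges thioredoxin, and the second is sulfiredoxin, which repairs over-oxidised peroxiredoxins. Txnrd1 (chr10:82833951-82897712, plus strand) was at 384, 231 and 186 CPM on day 0 and at 174, 155 and 170 CPM on day 21. The groups did not overlap, but control mouse 3 was close to the day-21 mice and mouse 1 far above them. The log2 fold change was -0.69 ± 0.22 (edgeR adjusted p = 0.029), and it was called lower. Without day-0 mouse 1 the value shrank to -0.35 (adjusted p = 0.053) and the call was lost. Leaving out any of the 3 day-21 mice also ended the call, at an adjusted p of 0.060 to 0.088, but with values of -0.72 to -0.64. Srxn1 (chr2:152105516-152111376, plus strand) was at 350, 107 and 85.7 CPM on day 0 and at 108, 89.3 and 106 CPM on day 21. Day-0 mouse 1 alone was high, and the other 5 mice overlapped. The log2 fold change was -0.84 ± 0.43 (95% interval -1.79 to 0.11; edgeR adjusted p = 0.14; exact permutation p = 0.8), and without day-0 mouse 1 it turned to 0.05.

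Hmox1 rested on that mouse too, while Osgin1 did not. Hmox1 was at 67.4, 36.2 and 51.2 CPM on day 21, and its log2 fold change went from -2.46 ± 0.89 (edgeR adjusted p = 0.045, called lower) to -0.01 (adjusted p = 0.98) without day-0 mouse 1. Osgin1, a growth inhibitor induced by oxidant stress, was at 136, 59.3 and 55.5 CPM on day 0 and at 27.4, 21.8 and 24.8 CPM on day 21. Its groups did not overlap, and it was called lower both with this mouse, at -1.76, and without it, at -1.24.

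The 3 glutathione peroxidases of the group and Txnrd1 are selenoenzymes, in which a TGA codon, elsewhere a stop, is read as selenocysteine. The codon is shown in capitals with up to 7 codons on either side, from the longest GENCODE M21 transcript, because it is what these 4 genes share. In Txnrd1 it is the last codon but 1, number 612 of 613, and in the peroxidases it lies farther inside.
Txnrd1, exon 15, chr10:82896037-82896039: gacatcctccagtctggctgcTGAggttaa
Gpx1, exon 1, chr9:108339451-108339453: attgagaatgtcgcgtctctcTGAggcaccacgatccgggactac
Gpx3, exon 2, chr11:54907256-54907258: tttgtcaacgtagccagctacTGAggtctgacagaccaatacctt
Gpx4, exon 3, chr10:80054737-80054739: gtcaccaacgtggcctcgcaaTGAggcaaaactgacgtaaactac

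Gpx3, the secreted peroxidase of plasma, was the most abundant of the 10 genes and lies at chr11:54902453-54910377 on the plus strand. It was at 33200, 32200 and 25300 CPM on day 0 and at 20400, 15000 and 16000 CPM on day 21. Every control mouse was above every day-21 mouse. This gave a log2 fold change of -0.82 ± 0.18 (edgeR adjusted p = 0.0043). On its own Gpx3 took 2.63% ± 0.357 of all counts on day 0 and 1.95% ± 0.284 on day 21 (SD, n = 3).

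Gpx1, the cytosolic peroxidase, lies at chr9:108338903-108340343 on the plus strand. It was at 2180, 2240 and 1850 CPM on day 0 and at 1190, 1040 and 1110 CPM on day 21. The groups were far apart with little spread in either. Its log2 fold change was -0.91 ± 0.13 (edgeR adjusted p = 0.00023), between -1.01 and -0.86 when any mouse was left out. Per length the ratio of Gpx3 to Gpx1 was 11.5 ± 0.614 on day 0 and 12.2 ± 1.21 on day 21, and the groups overlapped (exact permutation p = 0.4).

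Gpx4, which reduces lipid peroxides in membranes and holds back ferroptosis, lies at chr10:80047166-80056439 on the plus strand. It was at 625, 732 and 620 CPM on day 0 and at 450, 421 and 454 CPM on day 21. The groups did not overlap, and the day-21 mice were close together. Its log2 fold change of -0.58 ± 0.11 had an adjusted p of 0.0021 in the edgeR test, but at 1.49-fold it stood just under the fold of 1.5 and was not called. Leaving out day-0 mouse 1 or 3 or day-21 mouse 1 or 3 moved it past that limit. Of the 50-base words of its longest transcript, 61.7% also occur in Gpx4-ps2 or AC122253.3, so its counts are uncertain. Gpx4-ps2 held 19.7% to 21.3% of the summed counts of Gpx4 and Gpx4-ps2 in every mouse, and the sum went from 831 ± 79.4 to 555 ± 26.8 CPM (SD, n = 3), a log2 ratio of -0.58.

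Sod2, the manganese superoxide dismutase of the mitochondrial matrix, lies at chr17:13006846-13040063 on the plus strand. It was at 320, 383 and 322 CPM on day 0 and at 145, 148 and 153 CPM on day 21. The day-21 mice were nearly level with each other and all far below the controls. Its log2 fold change was -1.20 ± 0.11 (edgeR adjusted p = 2.0e-05), the smallest p among the 10 genes, and it stayed called lower at -0.81 with library size alone. Per length the ratio of Sod2 to Sod1 was 0.269 ± 0.0161 on day 0 and 0.299 ± 0.0115 on day 21, higher in every day-21 mouse (exact permutation p = 0.1, the smallest possible). The highest control, at 0.288, and the lowest day-21 mouse, at 0.289, were nearly level.

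Per length, in TPM, a share of all transcripts computed from the counts and the summed exon length of each gene, the order of levels at the top was the same on both days. On day 0 it ran from Gpx3, at 36200 ± 5290 TPM, through Gpx1, at 3150 ± 295, and Gpx4, at 828 ± 37.9, to Gclc, at 323 ± 108 (SD, n = 3), with no overlap between neighbours. The remaining 6 genes had means of 73.9 to 142 TPM on day 0, and each overlapped its neighbours in the order, the highest of them Srxn1 overlapping Gclc. On day 21, Txnrd1 at 73.4 ± 3.52 TPM and Sod2 at 46.6 ± 1.77 TPM did not overlap the gene above them, and Nfe2l2, at 142 ± 11.9 TPM, stood next below Gclc, at 189 ± 36.1 TPM, and overlapped it. With the length of the longest annotated transcript in place of all exons, Nfe2l2 was above Gclc on day 21, at 176 and 167 TPM, so the order of the lower genes depends on the length used. TPM values were not TMM-scaled and serve here to compare genes within a day.

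For Nfe2l2, which was also the gene with the largest rise among the 10, the genes with the most similar profile were Eif2a, Smad3 and Kdm5b. Their centred log2 CPM lay at a root mean square distance of 0.027, 0.032 and 0.037 from Nfe2l2 over the 6 mice, out of 13142 genes with a mean of at least 50 counts. For Gclc, the gene with the largest fall when all 6 mice were used, they were Nr1h4 (the bile acid receptor FXR), Gm42418 and CT010467.1, at 0.078, 0.097 and 0.103. Gm42418 is an annotated transcript known to take up ribosomal RNA reads, and it was at 5160, 5020 and 2540 CPM on day 0 and at 2150, 1280 and 1550 CPM on day 21. Like Gclc it was lowest on day 0 in mouse 3, and its part in the Gclc values was not tested.

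Of 17 regulators of Nrf2 tested, 3 were called higher and none lower, with a median log2 fold change of -0.22. The shares over all genes tested were 19.6% higher and 15.5% lower, so 3 of 17 higher is near its share. At an adjusted p under 0.05 with no limit on the fold, 6 of the 17 were lower, beside 21.7% of all genes tested. Keap1, the adaptor that sends Nrf2 to degradation, was at 61.2, 55.1 and 53.1 CPM on day 0 and at 59.2, 63.4 and 55.8 CPM on day 21, with overlapping groups and a log2 fold change of 0.08 ± 0.11 (edgeR adjusted p = 0.61). Bach1, a repressor at antioxidant response elements, had -0.39 ± 0.20 (adjusted p = 0.13). Sqstm1, the autophagy receptor p62 that binds Keap1, had -0.49 ± 0.14 (adjusted p = 0.015), under the fold needed for a call. The genes called higher were Maff, a small Maf protein, at 1.20 ± 0.26, and, named after their values were seen, Nfe2l3 and Palb2, which had means under 50 counts. Without day-0 mouse 2 only 1 of the 17 was called higher, and without each of the other mice 2 or 3 were.

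Among 29 other Nrf2 target genes, 5 were called higher and 4 lower, with a median of -0.19. The shares over all genes tested were 19.6% higher and 15.5% lower, so neither count stood out. The counts of this list moved with the samples, to 7 higher and 4 lower without day-0 mouse 1 and 7 lower without day-0 mouse 3. With library size alone they were 9 higher and 3 lower, where 36.1% of all genes were called higher and 8.06% lower. Abcc3, an exporter of organic anions and glutathione conjugates, rose by 2.17 ± 0.21, Cbr3, a carbonyl reductase, by 1.68 ± 0.33, and Mgst1, the microsomal glutathione transferase, by 0.86 ± 0.13. Me1, malic enzyme and a source of NADPH, fell by 1.74 on the log2 scale, beside Hmox1 and Osgin1 above. Gsr, which regenerates reduced glutathione, had -0.35 ± 0.17, Txn1, thioredoxin, 0.03 ± 0.10, and Prdx1, a cytosolic peroxiredoxin, -0.37 ± 0.12, none of them called.

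Of 10 genes of synthesis and supply tested, 7 were called lower and none higher (median -1.02), and of 17 genes of breakdown and recycling, 10 were called lower and none higher (median -1.09). With library size alone, each list had 1 gene called higher. The synthesis and supply list also had 1 gene called higher without day-0 mouse 1, day-0 mouse 3 or day-21 mouse 1, and 2 without day-0 mouse 2. Without day-0 mouse 1 that gene was Slc7a11, described below. Gss, glutathione synthetase, fell from 392, 471 and 354 CPM on day 0 to 183, 152 and 180 CPM on day 21, a log2 fold change of -1.24 ± 0.14. Its groups did not overlap. Cbs and Cth, the enzymes of transsulfuration that make cysteine, had -1.83 ± 0.14 and -1.31 ± 0.14, and Slc3a1, a subunit of the cystine transporter of the tubule, -1.30 ± 0.13. Ggt1, the brush-border enzyme that begins the breakdown of glutathione, had -1.73 ± 0.13, Cndp2, a dipeptidase, -1.92 ± 0.16, and Ggct, a gamma-glutamyl cyclotransferase, -1.90 ± 0.20. Slc7a11, the cystine importer, did not pass the filter on low counts when all 6 mice were used, with 0, 0 and 2 counts in the control mice against 7, 16 and 20 in the day-21 mice, at least 3.12-fold higher than the floor of 3 counts per library. Without day-0 mouse 1 it passed the filter only through its counts in the day-21 mice, and it was then called higher. That call, at a fitted 3.14 ± 1.01, rests on few counts and is not taken as support for a rise.

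The peroxidases outside the group did not move together. Gpx7, a peroxidase of the endoplasmic reticulum, had 7, 10 and 6 counts on day 0 and passed the filter only through the day-21 mice. It was higher at 3.55 ± 0.28, from 0.702, 0.824 and 0.618 CPM to 8.98, 8.23 and 8.45 CPM. Gpx8, of the same compartment, was higher at 1.51 ± 0.15. Gpx6 was lower at -2.48 ± 0.23. Gpx2 had no count in any mouse and Gpx5 was near 0, so neither was tested. Among the other superoxide enzymes and catalase, 3 of 4 were called lower. Catalase (Cat) was at 1150, 1260 and 1130 CPM on day 0 and at 405, 330 and 365 CPM on day 21, a fold change of -1.69 ± 0.12 with no overlap. Sod1 had -1.36 ± 0.13 and its copper chaperone Ccs -1.01 ± 0.15, while the extracellular Sod3, at -0.41 ± 0.18 (adjusted p = 0.082), was not called, though it was called lower at -0.59 without day-0 mouse 1.

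Of 22 genes of the thioredoxin and peroxiredoxin system, 9 were called lower and none higher (median -0.41). Prdx5, a peroxiredoxin of mitochondria and peroxisomes, had -1.36 ± 0.15, and Msrb1 and Msra, which repair oxidised methionine, -1.12 ± 0.15 and -1.08 ± 0.15. Txnip, which binds and inhibits thioredoxin, had -0.93 ± 0.13. With library size alone, this list had 4 genes called lower and 3 higher. Of 12 genes of selenoprotein synthesis and selenium supply, 5 were lower and 1 higher (median -0.47). Lrp2, megalin, which takes up selenoprotein P in the proximal tubule, had -2.37 ± 0.15, Sephs2 and Sepsecs, enzymes that make the selenocysteine precursor and its tRNA, -1.14 ± 0.14 and -0.97 ± 0.12, and Selenop, selenoprotein P itself, -0.74 ± 0.18. Lrp8, the other receptor for selenoprotein P, was the gene called higher, with a mean under 50 counts, and it was not called without day-0 mouse 2 or day-21 mouse 1. With library size alone, 2 genes of this list were called lower.

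Of 15 genes of oxidant sources tested, 8 were called higher and 3 lower (median 1.02), beside 19.6% and 15.5% of all genes tested. Both the 8 and the median include Uox, which had 0 counts in every day-0 mouse. It passed the filter only through the day-21 mice, so its call is not taken as support for a rise of this list. The summed level of the list was lower on day 21, at 928 to 973 CPM against 1220 to 1610 CPM on day 0. Cybb, the catalytic subunit of the phagocyte NADPH oxidase, had 2.68 ± 0.13, Ncf1, its cytosolic subunit, 2.58 ± 0.18, and Noxo1, an oxidase organiser, 2.55 ± 0.32. Cybb and Ncf1 are phagocyte genes. Macrophage markers were higher on day 21 in 10 of 10, while of 4 neutrophil markers tested 1 was higher and 2 lower. The part of these cells in the values of Cybb and Ncf1 was not tested. Xdh, xanthine oxidoreductase, which makes uric acid, was at 34.3, 36.3 and 26.6 CPM on day 0 and at 79.7, 53.7 and 63.7 CPM on day 21, 1.02 ± 0.17 with no overlap. Hao2 and Dao, peroxisomal oxidases, had -1.31 ± 0.27 and -1.15 ± 0.12, and Nox4, the oxidase of tubule cells, -0.84 ± 0.17. Of 11 genes of ferroptosis control, 2 were higher (Gch1 at 1.31 ± 0.30 and Slc40a1 at 0.74 ± 0.21) and 3 lower (Ncoa4, Por and Tfrc, at -1.30 ± 0.14, -1.04 ± 0.13 and -0.84 ± 0.16), with a median of -0.45. The ferroptosis list had 4 genes higher without day-0 mouse 1, since Acsl4, at 0.92 ± 0.14, and Slc7a11 were then called too. Slc7a11 passed the filter there only through the day-21 mice. Without day-21 mouse 1 the ferroptosis list had 5 genes lower. Of 15 mitochondrial housekeeping genes, listed to set beside Sod2, 4 were lower and none higher (median -0.30; 1 lower with library size alone), led by the chaperones Hspd1, at -1.25 ± 0.14, and Hspa9, at -0.96 ± 0.11, and by Immt, a protein of the inner membrane, at -0.95 ± 0.10.

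**Figure D4:**
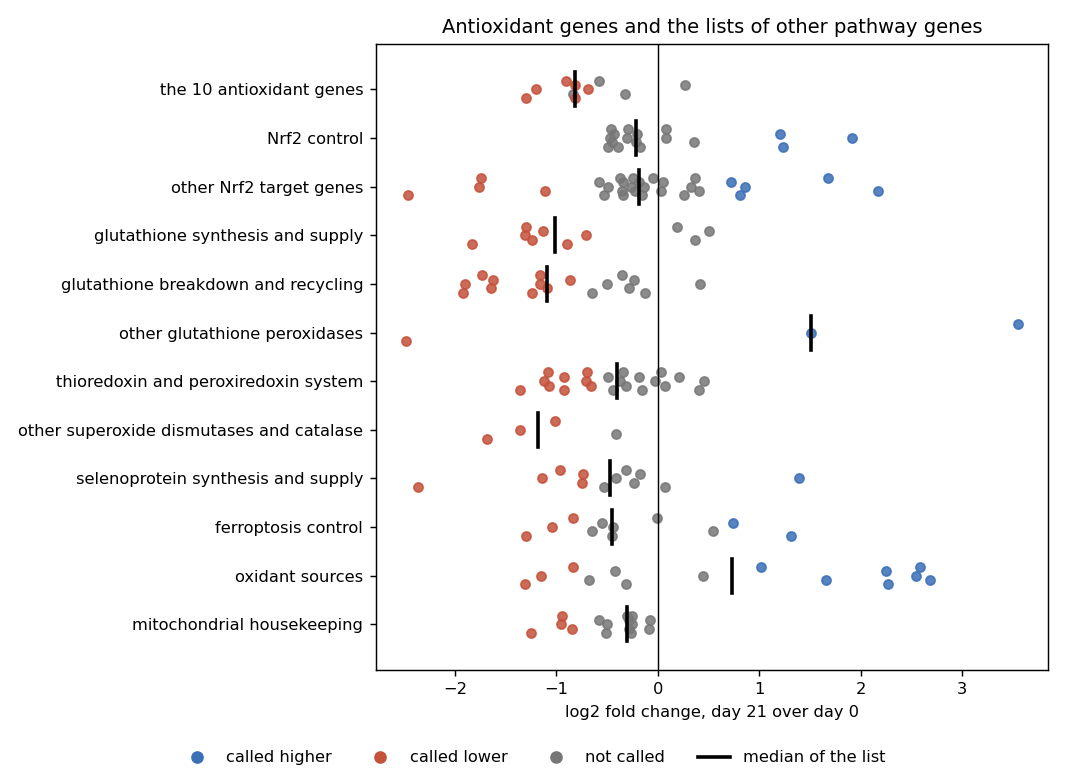
Log2 fold change, day 21 over day 0, of the 10 antioxidant genes (top) and of the tested genes of 11 other lists, each point a gene and each black bar the median of its list, with a gene in several lists drawn in each and Uox, at 0 counts in every day-0 mouse, left out. The medians of the antioxidant genes and of both glutathione lists lie near -1, while oxidant sources, drawn without Uox, have a positive median.

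Over all 11 lists together, 151 of 162 genes were tested, of which 21 were called higher and 49 lower. The shares over all genes tested were 19.6% higher and 15.5% lower. The median of the lists was -0.34 beside 0.03 over all genes. The 21 include Uox and Gpx7, which passed the filter only through the day-21 mice.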

How the data were processed

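Kidney total RNA was made into TruSeq libraries and sequenced as paired-end reads by the authors, who deposited raw counts per gene for each mouse, with no normalization. TopHat and mm10 are named in the submitters' processing notes, and the counting program and its strand setting are not given in the sources used here. Samples were grouped by their labels. The antioxidant genes and all gene lists were chosen with earlier results of these data known. Counts were filtered with filterByExpr (minimum count 10, minimum total 15), scaled by TMM and tested with edgeR 4.0.16 (glmQLFit and glmQLFTest) in R 4.3.3, day 21 against day 0, without a replicate block. SE is the log2 fold change over the root of F. The spread between mice was a biological coefficient of variation of 16.2%. Exact permutation tests used scipy 1.17.1 in Python 3.11.15 on log2 CPM with 0.5 CPM added. Counts of mice in the same group differed by a chi-square of 7.19 to 24.0 per gene, so no library was a duplicate. The labels name no batch. All fits were first tried on simulated counts drawn from these libraries.

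Besides the antioxidant genes, the text names all genes of lists of 5 or fewer, in other lists the 3 largest rises and falls among called genes with a mean of at least 50 counts, 16 genes named whatever their values, and the 3 genes most alike to Nfe2l2 and Gclc. Pseudogene sharing was counted as 50-base words of the longest transcript found in other genes. Alternatives were RLE, upper quartile or library size scaling, no filter or a mean of at least 50 counts, DESeq2 1.42.0, limma-voom (limma 3.58.1), leaving out each mouse, a replicate block, other thresholds, and libraries without mitochondrially encoded genes or the 20 highest genes. A library without Gpx3 counts and a list of selenoprotein genes were added after seeing the data. Sequences came from RefSeq windows and GENCODE M21 transcripts. Beside the lists in the results, markers of other cell types gave 6 of 6 T cell and 8 of 8 fibroblast markers higher, 6 of 6 erythroid, 4 of 6 loop and distal tubule, 3 of 7 collecting duct, 3 of 5 podocyte, 1 of 6 endothelial and 1 of 6 urothelial markers lower, and 1 neutrophil marker higher and 2 lower of 4.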

Additional observations from a re-analysis of the deposited data

How the results depend on the processing

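Of 188 values of the 10 antioxidant genes under up to 19 alternatives, 164 kept direction and side of the threshold, 12 were no longer called, 10 were newly called and 2 turned. The turned values were Nqo1 at 0.06 with library size alone and Srxn1 at 0.05 without day-0 mouse 1, neither called. With library size alone, 5985 genes (36.1%) were called higher and 1338 (8.06%) lower in place of 3249 and 2572. On that scale 1 antioxidant gene was higher and 2 lower. Of the 151 genes of the other lists, 33 were higher and 32 lower in place of 21 and 49. With stricter limits (adjusted p 0.01, fold 2) there were 1918 genes higher and 1254 lower, 2 antioxidant genes lower, and 14 genes of the other lists higher and 32 lower. Leaving out each mouse gave 5 to 8 antioxidant genes lower and 0 higher, 2844 to 3242 genes higher and 2283 to 2708 lower in all, and 18 to 24 higher and 47 to 56 lower in the other lists. Srxn1 ran from -1.18, called lower, without day-0 mouse 3 to 0.05, and was also called lower with no filter. A replicate block left 6 antioxidant genes lower and 0 higher, with 3235 genes higher and 2523 lower in all. The correlations of same-numbered mice were -0.025, 0.173 and 0.098, not every mouse correlated best with its own number, and the numbers were not taken to pair the mice. The cause of the change with library size alone was not tested. With 3 mice a group, the exact permutation test cannot go below 0.1, and depth limits genes near the floor, such as Slc7a11 and Gpx5.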

Other observations

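Uox, urate oxidase, the enzyme that potassium oxonate inhibits and a gene usually read as a liver gene, had 0 counts in all 3 day-0 mice and 27, 22 and 23 counts in day-21 mice 1, 2 and 3. That is a level of 1.54 ± 0.320 CPM (SD, n = 3) on day 21, at least 5.40-fold higher than the floor of 3 counts per library. Such counts are few, and Uox was named after its values were seen.

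The selenoprotein genes of the GENCODE M21 annotation other than Txnrd1, Gpx1, Gpx3 and Gpx4 did not move one way. This list was added after seeing the data. Of 20 genes, 18 were tested, of which 4 were called higher and 5 lower, with a median log2 fold change of -0.13. Over all genes tested, 19.6% were called higher and 15.5% lower. Selenon, a selenoprotein of the endoplasmic reticulum, was at 4.91, 7.09 and 8.24 CPM on day 0 and at 31.5, 36.6 and 31.2 CPM on day 21, a log2 fold change of 2.29 ± 0.19 with no overlap between the groups. Selenow, a small selenoprotein abundant in muscle, had 1.00 ± 0.17, from 56.7, 48.4 and 36.1 CPM to 84.1, 111 and 87.0 CPM. Selenoh had 1.21 ± 0.19. Dio2, the deiodinase that activates thyroid hormone, had 3.75 ± 0.81 from 0.1, 0 and 1.65 CPM on day 0, at or under the floor in day-0 mice 1 and 2. With 1, 0 and 16 counts on day 0, Dio2 passed the filter through its counts in the day-21 mice. Dio1, the deiodinase of the proximal tubule, was called lower at -0.73 ± 0.25, with overlapping groups.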
